A study of Mus musculus with 38 samples.

Results

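The 10 nucleotide excision repair genes Xpc, Ddb1, Ddb2, Xpa, Ercc1, Ercc2, Ercc3, Ercc4, Ercc5 and Ercc6 were followed in the lung and forestomach of mice exposed to dibenz(a,h)anthracene (DBahA), a polycyclic aromatic hydrocarbon whose reactive metabolites bind to DNA as bulky adducts. The genes were taken by name, for their part in finding and cutting out bulky adducts, and not for their values. They were represented by 11 of the 55681 probes on the array and were 10 of the 20018 genes for which a symbol was found. Xpa had 2 probes and each other gene had 1. Where a gene had several probes, the brightest in the tissue stood for it.

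All mice were male Muta™Mouse, a transgenic strain that carries the bacterial lacZ gene for mutation assays, aged about 10 weeks. Each mouse received olive oil by gavage daily for 28 days, either alone (D0) or with DBahA, at a daily dose per kg of body weight of 6.25 mg (D1), 12.5 mg (D2) or 25 mg (D3), and tissues were collected 72 h after the last dose. Lung was measured on 1 array per mouse, in 4 mice for D2 and in 5 mice for each other group. Forestomach was measured in 5, 5 and 4 mice at D0, D1 and D2, and at D3 on 5 arrays that carried 4 mouse numbers, because mouse 18 was listed on 2 arrays. These 2 arrays were averaged to 1 sample in the fits. No forestomach array carried number 20, although a lung of mouse 20 was measured, and the 2 arrays lay at -3.09 and 2.51 by the markers of glandular stomach, the neighbouring region, so whether both came from mouse 18 is uncertain. Taken as separate mice, they gave a median log2 fold change of the 10 genes at forestomach D3 of 0.09 in place of 0.14, and none was called. RNA came from random sections of whole tissue, so a change in level per cell and a change in the share of a cell type cannot be told apart. A level is given as the log2 ratio of tissue RNA over a common reference RNA from 11 mouse cell lines, so it can be compared between mice and tissues for 1 gene but not between genes.

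Nucleotide excision repair removes lesions that distort the double helix, such as the adducts of polycyclic aromatic hydrocarbons and the photoproducts of ultraviolet light. In the global branch, Xpc and the Ddb1-Ddb2 complex find the lesion anywhere in the genome. In the transcription-coupled branch, a stalled RNA polymerase and Ercc6 (CSB) mark it instead. Both branches then bring in the factor TFIIH, whose helicases Ercc2 (XPD) and Ercc3 (XPB) open the helix. Xpa checks the damage, the nuclease Ercc5 (XPG) cuts on one side and the Ercc1-Ercc4 (XPF) nuclease on the other, and replication proteins fill and seal the gap. Xpc and Ddb2 are known as targets of the damage-activated transcription factor p53 in human cells.

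The arrays carried the labelled tissues. The mean log2 ratio of 7 lung epithelium markers lay between 5.59 and 6.78 on lung arrays and between 0.34 and 1.40 on forestomach arrays. That of 6 markers of squamous epithelium lay between 3.66 and 4.44 in forestomach and between -0.31 and 0.09 in lung. Of these 6, however, 1 was higher in D0 lung than in D0 forestomach. Lor and Trp63 were well above background on all 19 lung arrays, Krt14 on 17, Krt5 on 12, and Krt13 and Krt4 on 0. Of the lung epithelium markers, Scgb1a1 was well above background on all 19 forestomach arrays, Aqp5 on 14, Sftpd on 12, Sftpc on 4, Sftpb on 1, and Sftpa1 and Ager on 0. The forestomach arrays fell apart by 9 markers of glandular stomach, the neighbouring region that should be absent from forestomach. Relative to the D0 mean, their mean was between 0.80 and 2.89 on 13 arrays and between -3.65 and -3.09 on the other 6 (mice 2, 5, 8, 9 and 15 and 1 of the 2 arrays of mouse 18). Each dose group held arrays of both kinds, but not evenly. At D0 mice 2 and 5 were low, while at D3 the only low array was that of mouse 18, averaged in the fits with a high one. In the D3 fit all 9 markers were above D0, with a median log2 fold change of 1.17 and none called. By the scanner software's own mark, the tissue channel of the median lung array was well above background for 48.8% of probes, and that of the median forestomach array for 40%. Of the 10 genes, 9 were well above background on all 19 lung arrays and Ercc6 was on 14. In forestomach, 8 were above background on all 19 arrays, Ddb2 was on 17 and Ercc6 on 6, so the values of Ercc6 in forestomach rest mostly on dim spots.

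**Figure D1:**
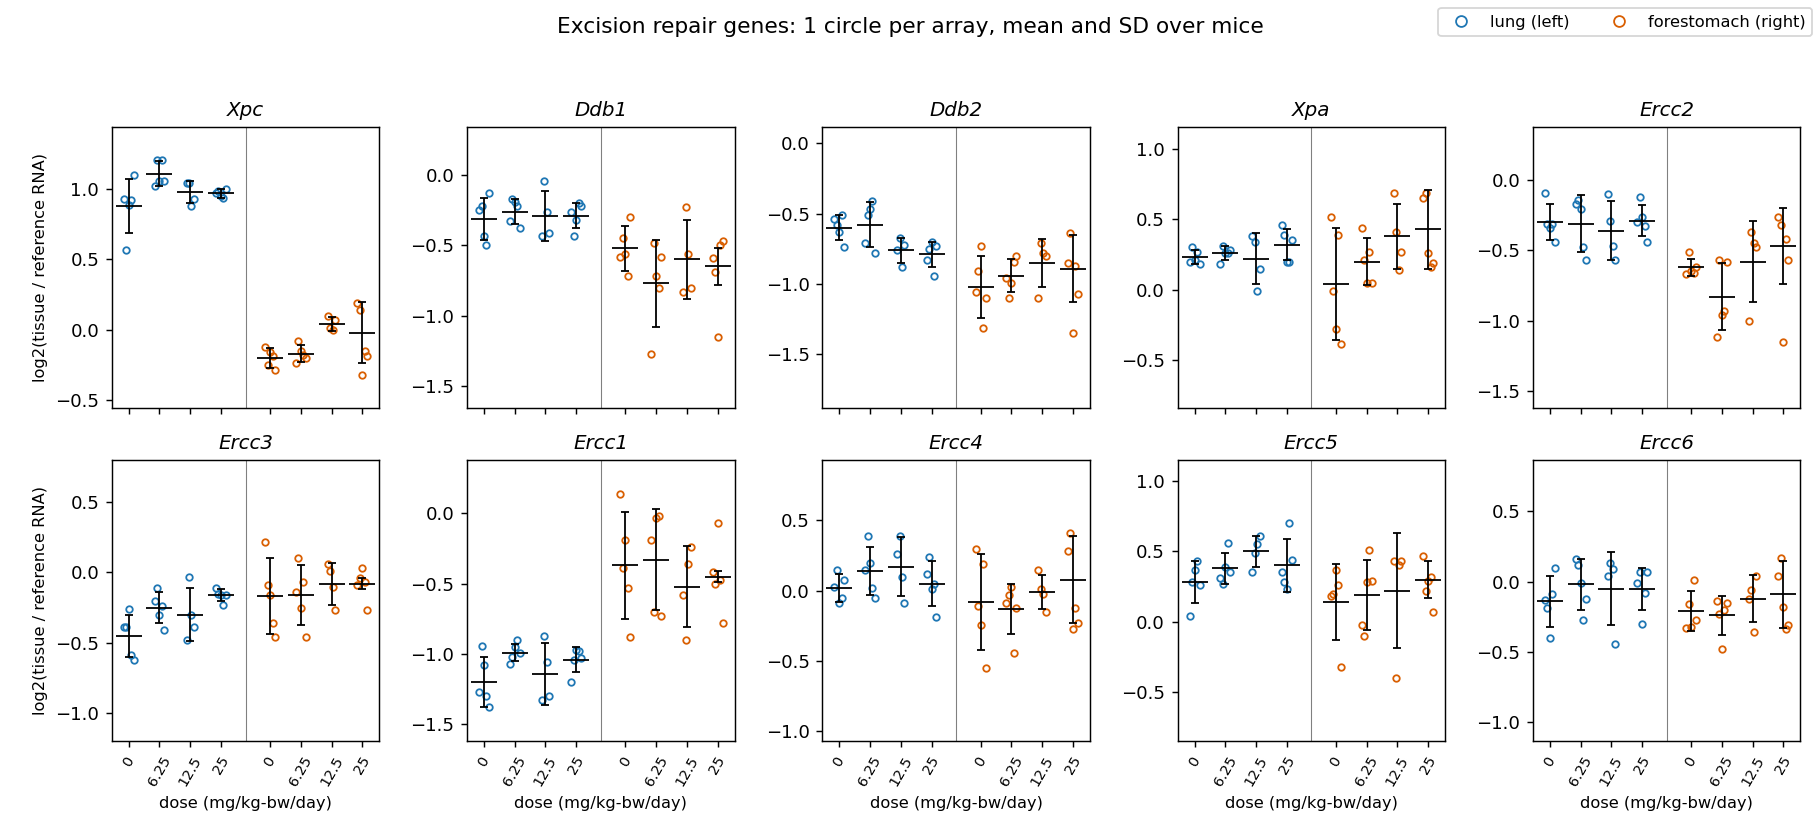
Level of each of the 10 genes as log2 ratio of tissue over reference RNA (vertical axis, each panel spanning 2 log2 units) against dose in mg/kg-bw/day, with 1 circle per array and the mean and SD over mice as black marks, lung on the left of each panel and forestomach on the right. Within a tissue the dose groups overlap almost everywhere, while Xpc lies at 0.57 and above in lung and at 0.19 and below in forestomach. Ercc1 is mostly lower in lung, with overlap between the tissues at D2.

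In lung, by the loess-normalized ratios, all 10 genes were close to their vehicle levels after 28 days of DBahA. At D3 their log2 fold changes against D0 ranged from -0.19 (Ddb2) to 0.29 (Ercc3) with a median of 0.09, beside a median of 0.01 over all 20018 genes. Above 0 were 9 of the 10, beside 52.8% of all genes. Of these 9, Ddb1, Ercc2 and Ercc4 were at only 0.01 or 0.02 and turned below 0 when certain single mice were left out. None of the 10 was called by limma at D3, where a call meant a Benjamini-Hochberg adjusted p of at most 0.05 and a change of at least 1.5-fold, and 356 of 55681 probes (0.639%) were called. At an unadjusted p under 0.05 there were 2 of 10, beside 11.3% of probes and 16.0% of genes by their brightest probe. The 95% confidence interval of the change lay within 1.5-fold in either direction for all 10 genes. It did so for 91.7% of probes and 87% of genes by their brightest probe. Among the 10 genes the bound farthest from no change was 1.39-fold. These bounds hold for the loess fit and do not cover the choice of processing. Over the alternatives the D3 value reached 0.63 for Ercc3, 0.59 for Ercc6 and 0.44 for the median of the 10, with none called. In the same lungs the cell cycle inhibitor Cdkn1a, a p53 target, rose by a log2 fold change of 2.93 at D3 (SE 0.17, limma adjusted p = 1.87e-09).

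Among the damage recognition genes, Ddb2, which binds the lesion in the complex with Ddb1, had the lowest change. In lung its log2 ratio was -0.74, -0.54, -0.58, -0.63 and -0.51 in the 5 D0 mice, and -0.83, -0.75, -0.70, -0.94 and -0.73 in the 5 D3 mice. All 5 D3 mice lay below the D0 mean of -0.60, but 2 of them lay above the lowest D0 mouse, so the groups overlapped. The log2 fold change was -0.19 (SE 0.08, unadjusted p = 0.0257, limma adjusted p = 0.341), and within the 4 slides that held both groups D3 minus D0 ran from -0.30 to -0.11. At D2 the value was -0.16 (SE 0.08), and at D1 it was 0.02 (SE 0.08). Centring each array on its median in place of loess turned the D3 value to 0.16. That scaling raised the D3 change of the median probe, among probes above background on all arrays, to 0.35 in lung and 0.71 in forestomach. Xpc, the lesion sensor of the global branch, had log2 fold changes of 0.24 (SE 0.08), 0.10 (SE 0.09) and 0.09 (SE 0.08) at D1, D2 and D3, with limma adjusted p of 0.552 at D1. Ddb1, the partner of Ddb2 in a ubiquitin ligase, stayed between 0.02 and 0.05 at all 3 doses.

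Of the 2 TFIIH helicases, Ercc3 had the highest change of the 10 genes and Ercc2 one of the smallest. Ercc3 lay at log2 ratios of -0.62, -0.39, -0.39, -0.26 and -0.59 in the D0 lungs and at -0.11, -0.15, -0.16, -0.23 and -0.16 in the D3 lungs. Each D3 mouse was above each D0 mouse, with a gap between the nearest pair that was smaller than the spread of either group. This was the only 1 of the 10 genes whose D3 and D0 groups did not overlap in lung, beside 4.79% of genes. The log2 fold change of Ercc3 was 0.29 (SE 0.09, unadjusted p = 0.00343, limma adjusted p = 0.132), and it was above 0 within all 4 slides, from 0.04 to 0.45. At D1 and D2 it was 0.20 and 0.15 (SE 0.09 each), and both of these groups overlapped D0. Ercc2 was at 0.01 (SE 0.10) at D3.

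None of the verification and incision genes had an unadjusted p under 0.05 in lung at D3 by its brightest probe. Xpa was at 0.09 (SE 0.08) at D3 by its brightest probe and at 0.28 (SE 0.09, unadjusted p = 0.00714, limma adjusted p = 0.188) by its other probe, so its 2 probes disagreed in size though not in direction. Ercc1, the partner that anchors the Ercc4 nuclease to DNA, was at 0.15 (SE 0.09), Ercc4 at 0.02 (SE 0.10) and Ercc5 at 0.12 (SE 0.09) at D3. Ercc6, the transcription-coupled repair gene, was at 0.09 (SE 0.12). The SD between mice of 1 dose group, pooled over the groups, was between 0.11 (Ddb2 and Xpa) and 0.19 (Ercc6) in lung.

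None of the 10 genes was called in lung at D1 (0.14% of probes called) or at D2 (0.264%). At D1 the median log2 fold change was 0.11 and 9 of 10 were above 0, beside 54.2% of genes by their brightest probe. An unadjusted p under 0.05 was reached by 3 (Xpc 0.24, Ercc1 0.21 and Ercc3 0.20), beside 6.53% of probes and 8.25% of genes. At D2 the median was 0.07 and 1 gene, Ercc5 at 0.22 (SE 0.10), had an unadjusted p under 0.05, beside 8.07% of probes and 11.3% of genes. The largest bounds of the intervals were 1.32-fold at D1 and 1.34-fold at D2, again for the loess fit only. The 3 doses were compared with the same D0 mice, so these values are not independent of each other. In a straight-line fit of level on dose, none of the 10 was called (0.413% of probes called), with Ddb2 at -0.22 (SE 0.08, limma adjusted p = 0.228) and Ercc3 at 0.25 (SE 0.08, adjusted p = 0.221) over the span from 0 to 25 mg/kg-bw/day. These were the 2 of 10 with an unadjusted p under 0.05 in that fit, beside 10.8% of probes and 15.5% of genes. Between D3 and D1 none of the 10 genes and 0% of probes were called by limma. Ddb2 alone of the 10, at -0.21 (SE 0.08), had an unadjusted p under 0.05, beside 4.4% of probes and 4.85% of genes.

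**Figure D2:**
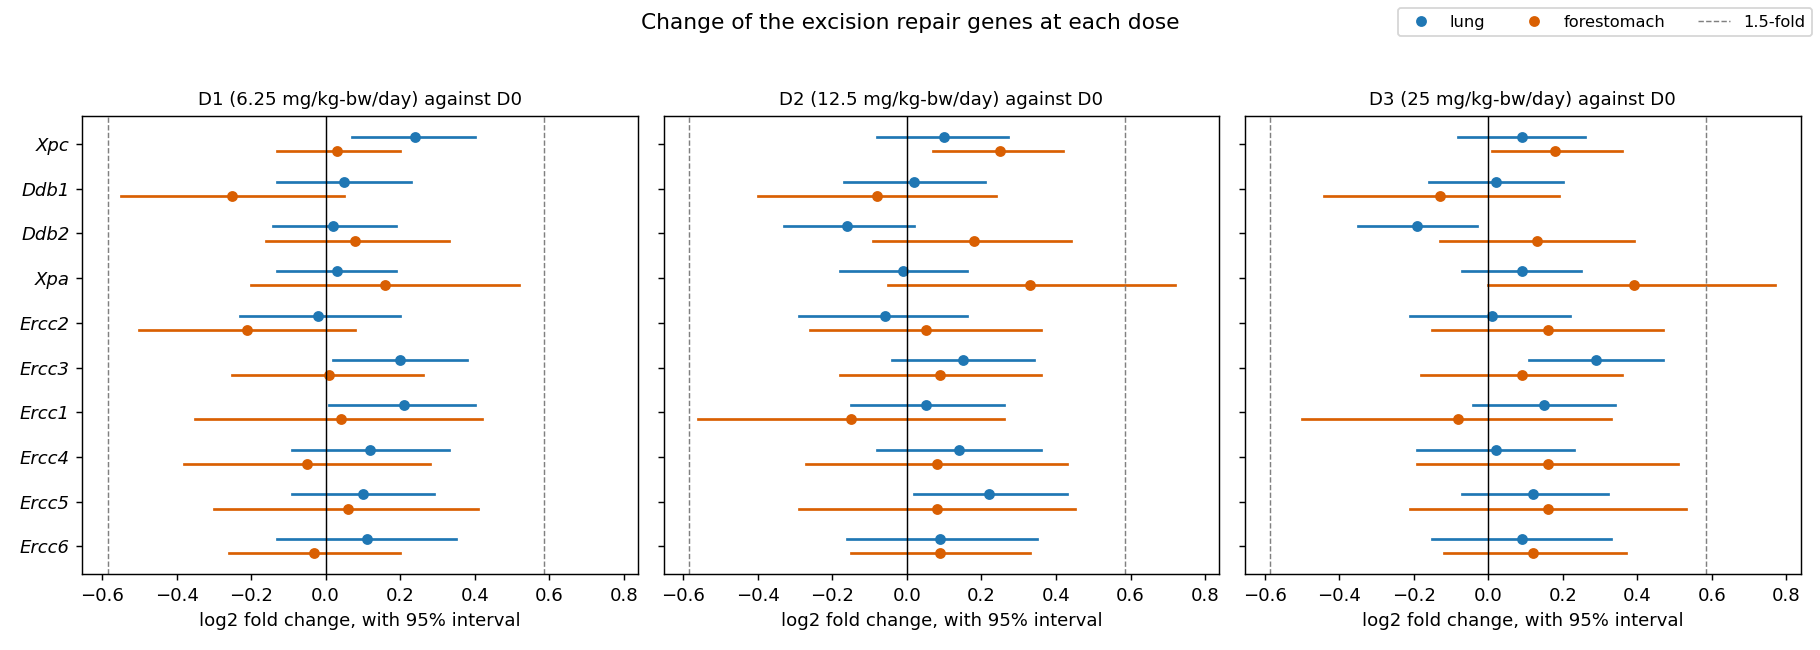
Log2 fold change against D0 with its 95% interval (horizontal axis) for each of the 10 genes at D1, D2 and D3, lung in blue and forestomach in orange, with dashed lines at 1.5-fold. Every lung interval lies inside the dashed lines, with the farthest bound at 1.39-fold, and the forestomach intervals are wider, reaching 1.70-fold for Xpa at D3.

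In forestomach, a tissue that gavaged DBahA reaches directly, none of the 10 genes was called at D1, D2 or D3, and neither was any other probe (0% at each dose). At D3 the log2 fold changes ranged from -0.13 (Ddb1) to 0.39 (Xpa) with a median of 0.14, beside 0.01 over all genes. Above 0 were 8 of 10, beside 53.9% of all genes. By limma, 2 of 10 had an unadjusted p under 0.05, beside 3.56% of probes and 3.61% of genes by their brightest probe. At D2 it was 1 of 10, beside 3.1% of probes and 2.61% of genes. At D1 it was 0 of 10, beside 4.32% of probes and 4.06% of genes. The intervals of 9 genes lay within 1.5-fold at D3, beside 82.2% of probes and 71.2% of genes, and that of Xpa reached 1.70-fold. The precision was lower than in lung, with a pooled SD within groups from 0.11 (Xpc) to 0.31 (Ercc1). Cdkn1a was at -0.08 (SE 0.11, limma adjusted p = 1) in forestomach at D3. The 9 markers of glandular stomach, none of them called, were all above 0 in the same contrast, with a median log2 fold change of 1.17. Their part in the changes of the 10 genes was not tested.

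The genes with an unadjusted p under 0.05 in forestomach at D3 were Xpa and Xpc. Xpa, the damage verifier, had log2 ratios of -0.39, 0.52, -0.01, -0.28 and 0.39 in the 5 D0 mice and of 0.65, 0.69 and 0.16 in D3 mice 16, 17 and 19, with 0.26 and 0.19 on the 2 arrays of mouse 18. The D0 mice spanned most of the range and the groups overlapped. The change was 0.39 (SE 0.18, unadjusted p = 0.0483, limma adjusted p = 1) by the brightest probe and 0.21 (SE 0.21) by the other. Xpc lay at -0.29, -0.12, -0.25, -0.16 and -0.19 in D0 mice and at 0.10, 0.01, 0.00 and 0.07 in the 4 D2 mice. All 4 D2 mice were thus above all 5 D0 mice, which held for 1 of the 10 genes at D2 and for 0.704% of genes. Its log2 fold change was 0.25 (SE 0.08, unadjusted p = 0.00937, limma adjusted p = 1) at D2 and 0.18 (SE 0.08, adjusted p = 1) at D3, where its mice ranged from -0.25 to 0.19 and overlapped D0. None of the 10 was free of overlap with D0 at D1 or D3, beside 0.402% and 1.05% of genes.

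Of the remaining genes in forestomach, Ercc2 had the widest course, at -0.21 (SE 0.14) at D1 and 0.16 (SE 0.15) at D3. Its D3 minus D1 difference was 0.37 (SE 0.15, limma adjusted p = 0.911). Ercc2 was the 1 of 10 genes with an unadjusted p under 0.05 in that contrast, beside 5.35% of probes and 5.83% of genes. None of the 10 and 0% of probes were called between D3 and D1. The line on dose called none (0% of probes). There 2 of 10 had an unadjusted p under 0.05, beside 4.68% of probes and 4.9% of genes. These were Xpa at 0.39 (SE 0.17) and Xpc at 0.21 (SE 0.09). In the same fit the glandular stomach markers had a median of 1.25.

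Whether the tissues responded differently was tested as the lung change minus the forestomach change. None of the 10 genes was called at D1, D2 or D3, where 0.0323%, 0.0611% and 0.172% of probes were called by limma. Ddb2 had the lowest difference at D3, at -0.32 (SE 0.14, unadjusted p = 0.0325, limma adjusted p = 0.921). It was the only 1 of the 10 with an unadjusted p under 0.05, beside 5% of probes and 6.49% of genes by their brightest probe. At an unadjusted p under 0.05 there were 0 of 10 at D1, beside 4.54% of probes and 4.78% of genes. At D2 there was 1 of 10, again Ddb2, beside 3.68% of probes and 4.1% of genes. The 95% interval of the Ddb2 difference ran from -0.64 to -0.03 at D2 and from -0.61 to -0.03 at D3. For Cdkn1a the same difference was 3.01 (SE 0.22, adjusted p = 2.11e-10).

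In D0 mice, 2 of the 10 genes were called between lung and forestomach, beside 16.2% of probes and 27.5% of genes by their brightest probe. Xpc was 2.12-fold higher in lung, with a log2 difference of 1.08 (SE 0.08, limma adjusted p = 2.22e-13). Its log2 ratios were 1.10, 0.93, 0.57, 0.89 and 0.92 in the D0 lungs and -0.29, -0.12, -0.25, -0.16 and -0.19 in the D0 forestomachs. The highest forestomach array of any dose, at 0.19, was below the lowest lung array, at 0.57. Ercc1 went the other way, 1.77-fold lower in lung, with a log2 difference of -0.83 (SE 0.15, limma adjusted p = 3.26e-05). It lay at -1.38, -1.27, -0.94, -1.08 and -1.30 in D0 lungs and at -0.88, 0.14, -0.39, -0.19 and -0.53 in D0 forestomachs, so the groups did not overlap, as for 29.2% of genes, but nearly met at -0.94 and -0.88. Over all doses the arrays of the 2 tissues did overlap for Ercc1.

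At adjusted p alone, 5 of 10 genes differed between the D0 tissues, beside 27.7% of probes, and the same 5 had an unadjusted p under 0.05, beside 36% of probes. Over genes by their brightest probe, the shares were 8329 of 20018 at adjusted p and 50.1% at unadjusted p, so the 10 genes were near the share of all genes. The other 3 were Ddb2 at 0.42 (SE 0.10, limma adjusted p = 0.00107) and Ercc2 at 0.33 (SE 0.12, adjusted p = 0.0457), both higher in lung, and Ercc3 at -0.28 (SE 0.10, adjusted p = 0.0422), lower in lung. The adjusted p of Ercc2 was 0.0828 with mouse as a fixed replicate block. When arrays were centred on their median instead of loess-normalized, Ercc1 was at -0.16 and not called, Ercc3 turned to 0.25, and Xpc was called at 1.49. Ercc1 also moved with the glandular stomach markers. Over all doses it averaged -0.55 (SD 0.24) on the 13 forestomach arrays with high glandular markers and -0.12 (SD 0.23) on the 6 with low ones, a difference of -0.42, while the other 9 genes differed by -0.18 to 0.24. Against the high arrays alone, the D0 difference of Ercc1 was -0.71 (limma adjusted p = 0.000348) and that of Xpc was 1.11 (adjusted p = 1.31e-10).

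**Figure D3:**
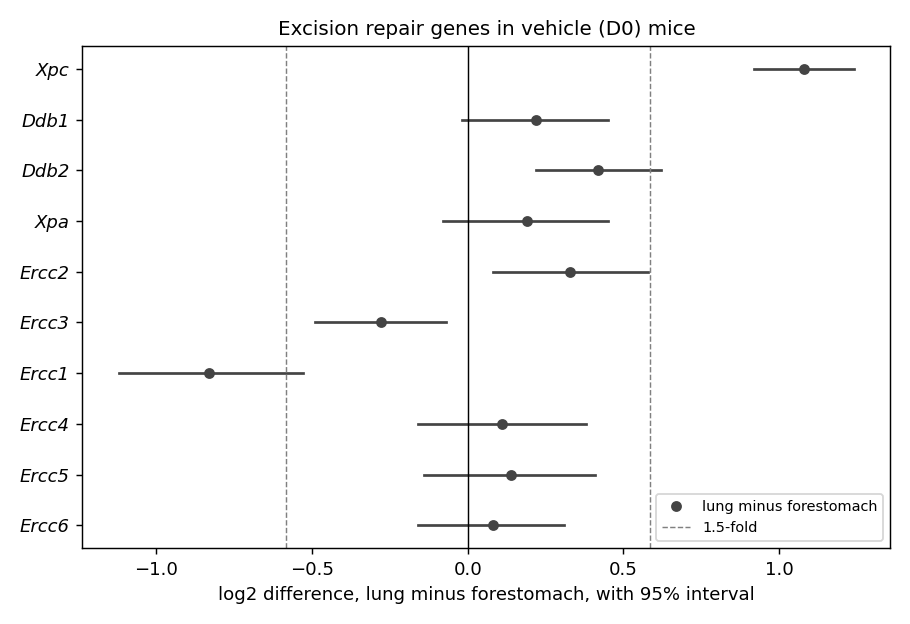
Log2 difference between lung and forestomach in D0 mice, with its 95% interval (horizontal axis), for each of the 10 genes, with dashed lines at 1.5-fold. Xpc lies at 1.08 and Ercc1 at -0.83, outside the dashed lines on opposite sides, and the other 8 genes lie between them.

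Promoter sequences in RefSeq (assembly GRCm38.p6, windows of 300 bases around the start of the gene, most of them upstream) were used for 7 of the 10 genes: Ddb1, Xpa, Ercc1, Ercc2, Ercc4, Ercc5 and Ercc6. The search for the named genes left out a chromosome that the background of 32851 promoters kept. A gene without a sequence here may therefore still have an entry. That of Ercc1 is shown because it is the gene of these 7 that was called between the tissues (chr7:19344821-19345120, plus strand), read 5′ to 3′ with the GC box GGGCGG, as its reverse complement, in capitals.
Ercc1: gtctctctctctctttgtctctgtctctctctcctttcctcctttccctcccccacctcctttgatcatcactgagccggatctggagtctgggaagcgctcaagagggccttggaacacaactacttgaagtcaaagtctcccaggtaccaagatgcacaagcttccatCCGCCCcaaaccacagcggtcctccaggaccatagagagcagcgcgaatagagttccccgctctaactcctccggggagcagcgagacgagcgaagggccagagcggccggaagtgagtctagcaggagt
A GC box on either strand was present in 4 of the 7 promoters (Ddb1, Ercc1, Ercc2 and Ercc6), beside 35.7% of 32851 promoters of the same length. A CCAAT box on either strand was present in 4 of 7 (Xpa, Ercc2, Ercc4 and Ercc5), beside 37.4%, and Ercc2 alone held 3 matches. The E2F-type letters TTTCCCGC or TTTGGCGC (1.56% of promoters) and the p53 half-site (8.36% of promoters) matched in 0 of 7, which says only that these letters are not in these windows.

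The other genes of the pathway were described from a list of 40: partners of the recognition factors, transcription-coupled repair factors, the other TFIIH subunits, replication protein A, and the replication factors that fill and seal the gap. In lung at D3, 1 of the 40 was called (0.639% of probes, 1.16% of genes) and 4 passed the adjusted p alone (1.33% of probes, 484 of 20018 genes), all higher than in D0 and all among the 17 genes of gap filling and ligation. They were Pole, the catalytic subunit of DNA polymerase epsilon, Rfc5 and Rfc4, subunits of the clamp loader that places PCNA on DNA, and Pold1, the catalytic subunit of DNA polymerase delta. Of the 17, 15 were above 0 with a median log2 fold change of 0.10, beside 52.8% of all genes above 0 and a median of 0.01.

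Pole had log2 ratios of -3.05, -2.99, -2.75, -3.24 and -3.26 in D0 lungs and of -2.25, -2.46, -2.73, -2.47 and -2.32 in D3 lungs. The groups did not overlap but nearly met, at -2.75 and -2.73. The change was 0.61, or 1.52-fold (SE 0.12, limma adjusted p = 0.0088), which left it just past the fold threshold. The mean over the probes of Pole gave 0.27 (adjusted p = 0.127) and no call, so its probes disagreed in size. The call was also absent when D0 mouse 4 or 5 or D3 mouse 16 or 20 was left out, in all of which no pathway gene was called. It was absent too at 0.58 by the submitters' value table and with scan day as a block, both under the fold threshold, and at 0.99 by median centring (limma adjusted p = 0.732).

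Rfc5 lay at -3.04, -2.87, -2.84, -3.02 and -2.93 in D0 lungs and at -2.41, -2.61, -2.55, -2.05 and -2.41 in D3 lungs, with no overlap. Its log2 fold change was 0.53 (SE 0.10, limma adjusted p = 0.00604), the lowest adjusted p of the 40 genes. Its changes at D1 and D2 were 0.34 (SE 0.10) and 0.39 (SE 0.10), and these groups did not overlap D0 either, beside 1.93% and 3.77% of genes. Rfc4 was at 0.43 (SE 0.10, adjusted p = 0.0336) and Pold1 at 0.30 (SE 0.07, adjusted p = 0.036) at D3. Pold1 was already at 0.36 at D1 (SE 0.07, adjusted p = 0.0265, beside 0.192% of probes at that level). All 4 genes were well above background on every lung array. Within each of the 4 slides that held D0 and D3 all 4 were higher at D3, though Pole by as little as 0.01 (range 0.01 to 0.83). The 4 were picked by their adjusted p on these same arrays, so the slides are no separate support.

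**Figure D4:**
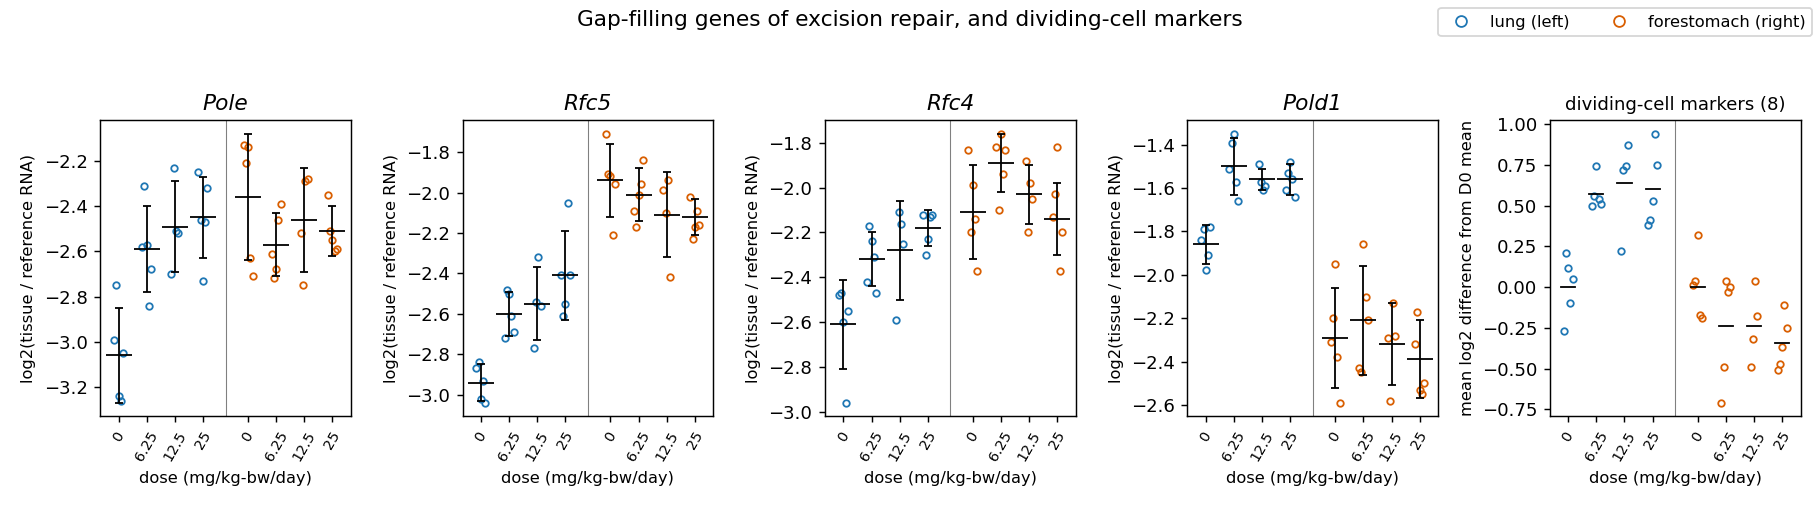
Log2 ratio of tissue over reference RNA for Pole, Rfc5, Rfc4 and Pold1, and the mean log2 difference from the D0 mean of 8 markers of dividing cells (vertical axes), against dose in mg/kg-bw/day, with 1 circle per array, the mean and SD over mice as black marks in the first 4 panels and the mean over arrays in the last, lung on the left and forestomach on the right. In lung the means of the 4 genes and of the markers are above D0 at every dose, and in forestomach the marker mean is -0.34 at D3.

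The markers of dividing cells, as a mean, moved with these genes. In lung their mean over 8 genes was between -0.27 and 0.21 in D0 mice (relative to the D0 mean), and it averaged 0.57 at D1 (0.50 to 0.74), 0.64 at D2 (0.22 to 0.87) and 0.60 at D3 (0.38 to 0.94). Of the 8 markers, 2, 4 and 4 were called higher at D1, D2 and D3 by limma, where 0.28%, 0.51% and 1.16% of genes were called in either direction. Not every marker rose: 7, 6 and 7 of the 8 were above 0. Aurkb was not well above background on any array of either tissue, and the other 7 were above background on 14 to 19 lung arrays. Their part in the change of the gap-filling genes was not tested.

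The promoters of the 3 genes that passed the adjusted p in lung at D3 and had a RefSeq entry are shown so that they can be compared, 5′ to 3′, with matches to the GC box (GGGCGG) and the E2F-type letters (TTTCCCGC or TTTGGCGC), on either strand, in capitals. Rfc5 is at chr5:117388974-117389273, minus strand, Rfc4 at chr16:23127681-23127980, minus strand and Pold1 at chr7:44548766-44549065, minus strand, all in GRCm38.p6.
Rfc5: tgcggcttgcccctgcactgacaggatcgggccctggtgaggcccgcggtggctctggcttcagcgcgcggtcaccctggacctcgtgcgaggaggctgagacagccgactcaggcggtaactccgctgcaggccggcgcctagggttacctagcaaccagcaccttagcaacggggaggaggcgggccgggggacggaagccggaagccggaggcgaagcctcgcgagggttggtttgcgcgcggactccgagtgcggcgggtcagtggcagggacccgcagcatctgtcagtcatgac
Rfc4: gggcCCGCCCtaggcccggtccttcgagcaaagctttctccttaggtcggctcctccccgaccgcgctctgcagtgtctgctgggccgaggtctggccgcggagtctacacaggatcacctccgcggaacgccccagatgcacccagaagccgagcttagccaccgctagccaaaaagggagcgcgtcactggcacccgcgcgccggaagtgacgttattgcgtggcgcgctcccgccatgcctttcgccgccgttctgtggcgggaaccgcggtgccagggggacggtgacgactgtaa
Pold1: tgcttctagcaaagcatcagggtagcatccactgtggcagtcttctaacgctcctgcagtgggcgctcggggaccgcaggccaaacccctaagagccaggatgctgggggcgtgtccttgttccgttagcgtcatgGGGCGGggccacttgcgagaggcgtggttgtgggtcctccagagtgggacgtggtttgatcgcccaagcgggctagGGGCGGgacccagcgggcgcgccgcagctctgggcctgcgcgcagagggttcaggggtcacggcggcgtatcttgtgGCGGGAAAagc
Pold1 held 1 E2F-type match near the end of the window and 2 GC boxes, Rfc4 held 1 GC box and Rfc5 held neither. None of the 3 held a CCAAT box.

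Replication protein A, the complex that coats the single strand during incision and gap filling, had values above 0 in lung at D3 for all 3 subunits, but none passed the adjusted p. Rpa1, Rpa2 and Rpa3 were at 0.20 (SE 0.08), 0.27 (SE 0.10) and 0.28 (SE 0.09), with limma adjusted p of 0.274, 0.264 and 0.196. The sliding clamp Pcna was at 0.27 (SE 0.09, adjusted p = 0.165). None of the 6 recognition partners, 6 transcription-coupled repair factors or 8 other TFIIH subunits passed the adjusted p in lung at D3. The lowest values of the list belonged to Gtf2h1, a core subunit of TFIIH, and Usp7, a deubiquitinase that stabilises repair factors at stalled polymerases, both at -0.20 (SE 0.11 and 0.09).

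In forestomach none of the 40 genes was called at D3. The highest values were those of Usp7 at 0.16 (SE 0.15) and Cetn2, a partner of Xpc, at 0.11 (SE 0.19), and the lowest were those of Pold2, an accessory subunit of polymerase delta, at -0.30 (SE 0.12) and Rpa2 at -0.29 (SE 0.15). Of the 17 gap-filling genes, 6 were above 0, beside 53.9% of all genes, and their median was -0.10. The mean of the dividing-cell markers was -0.34 (-0.51 to -0.11), and the median log2 fold change of the glandular stomach markers was 1.17. The lung change minus the forestomach change at D3 was called for 1 of the 40 genes (0.172% of probes), Rfc5 at 0.72 (SE 0.15, limma adjusted p = 0.0217). This call was absent without lung D0 mouse 4, lung D3 mouse 19, forestomach D0 mouse 2 or forestomach D3 mouse 17 or 18, and when each was left out the number of pathway genes called was 0. Median centring also ended it, with a difference of 0.33 (limma adjusted p = 1).

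Between the D0 tissues, 7 of the 40 genes (17.5%) were called, beside 16.2% of probes and 27.5% of genes by their brightest probe. Only Cetn2 was higher in lung, at 0.66 (SE 0.15, limma adjusted p = 0.000554). The other 6 were lower in lung: Rad23b, which stabilises Xpc, at -0.94 (SE 0.11), Gtf2h3 of TFIIH at -0.70 (SE 0.13), Pold2 at -0.72 (SE 0.10), Rfc5 at -1.0 (SE 0.10), Pole at -0.69 (SE 0.13) and Pole3, an accessory subunit of polymerase epsilon, at -1.38 (SE 0.21). Median centring of the arrays ended all 7 calls, with Rad23b at -0.24, Gtf2h3 at -0.07, Pold2 at -0.11, Rfc5 at -0.32, Pole at -0.01, Pole3 at -0.66 and Cetn2 at 1.21 (limma adjusted p from 0.111 to 0.994). Gtf2h3 was at -0.49 and not called against the arrays with high glandular markers, and Pole was at -0.37 and not called as the mean over its probes. Of the 8 dividing-cell markers, 7 were called lower in D0 lung than in D0 forestomach, beside 2555 of 20018 genes. The part of these markers in the differences was not tested.

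Among 12872 genes whose brightest probe was well above background on every lung array of at least 1 dose group, the 5 whose log2 ratio followed Ercc3 most closely over the 19 lung arrays were Clns1a (Pearson r = 0.895), Slc35a1 (0.891), Cyp4f16 (0.847), Prim1 (0.836) and Rhod (0.832). These r are a description over arrays that share the reference RNA and the slides and include the dose groups. Prim1, the small subunit of DNA primase, was at 0.54 at D3 in lung (limma adjusted p = 0.013), and the other 4 were between 0.27 and 0.45 with adjusted p from 0.116 to 0.234.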

How the data were processed

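RNA of each tissue (Cy5) was hybridised with reference RNA (Cy3) to two-colour Agilent 8x60K arrays, with no dye swap, so a dye effect of a probe is shared by all samples. The authors deposited scanner output with spot intensity values from Feature Extraction 10.7.3.1, a log10 ratio per spot computed by that software, and a table of log2 ratios. Against these log2 ratios from the submitters, the ratios computed here had slopes near 1, so scale and direction matched. Each array holds 62976 spots.

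As in the methods of the study, the median intensity of each spot was taken without background correction, normalized by loess within each array and expressed as log2(Cy5/Cy3). Outlier-marked spots were left out and spots of a probe averaged. In place of MAANOVA, limma 3.58.1 (R 4.3.3) was fitted per tissue to all dose groups, and to both tissues together for differences between tissues, with Benjamini-Hochberg adjustment over 55681 probes. The scripts were tested on simulated data with independent errors. These held no slide effect, no correlation between the tissues of a mouse and no glandular shift, so the test does not cover those. Mice with the same number in both tissues are 1 animal; over 18 such mice the correlation of deviations from the group means was 0.075 to 0.249. Replicates were taken as separate mice by their numbers. The number of arrays (38, on 5 slides) limits precision, and no spot was saturated. Alternatives were background correction, scaling, filters, slide or scan day or mouse as a block, glandular marker score, and leaving out each mouse.

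All 10 excision repair genes are named. Of the other pathway genes, those called in any contrast and the 2 highest and 2 lowest at D3 in each tissue are named, and the 5 genes most like the one with the smallest p in lung. Rfc4, Pold1, Rpa1, Rpa3 and Pcna were named after their values were seen. The genes and lists were chosen with earlier results of these data known.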

Additional observations from a re-analysis of the deposited data

Results flagged for a closer look

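Of 80 sets of samples (10 genes in 8 groups), 4 held a mouse farther from the others than Dixon's 95% limit, a test that chance passes in about 1 of 20 groups. Ercc5 in forestomach was -0.32 in D0 mouse 1, with the nearest mouse at 0.18, and -0.40 in D2 mouse 12, with the nearest at 0.40. Ercc6 was -0.48 in forestomach of D1 mouse 8, with the nearest at -0.23, and -0.44 in lung of D2 mouse 15, with the nearest at 0.04. Both Ercc6 values came from spots that were not well above background.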

How the results depend on the processing

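None of the 10 genes was called in any dose contrast, or in any lung minus forestomach response, under any alternative or with any mouse left out. Of 878 values under the other alternatives, 818 were marked as the same. For the change of a single gene this meant the same sign and side of the threshold. For a count of genes called it meant an equal count or at most a 1.5-fold difference. For a median of the 10 genes it meant a shift smaller than its SD between mice, whatever its sign. A reversed sign was looked for in single genes only, where 20 values reversed. With mouse as a fixed or random replicate block, the tissue differences of Xpc (1.08) and Ercc1 (-0.83) stayed called, and the D3 response difference called 2 pathway genes with the random block. Median centring moved the median of the 10 genes to 0.41, 0.48 and 0.44 in lung at D1, D2 and D3 and 0.36 for the dose trend, to 0.20, 0.64 and 0.72 in forestomach, 0.50 for D3 against D1 and 0.75 for the trend, to -0.12 and -0.29 for the response difference at D2 and D3, and to 0.62 between the D0 tissues, where it left 1 of the 10 and 0 of the 40 called. It turned Ddb2 in lung (0.16), Ddb1 (0.74) and Ercc1 (0.60) in forestomach, Ddb1 (-0.21), Ercc3 (-0.05) and Ercc1 (-0.09) in the response difference, all at D3, and Ercc3 between tissues (0.25). In lung at D3, Ercc2 was -0.13 and Ercc4 -0.03 by the Feature Extraction ratio, -0.04 and -0.03 by the submitters' table, -0.06 and -0.02 with slide as a block and -0.06 and -0.03 with scan day. In forestomach at D3, Ercc3 was -0.07 with slide and -0.09 with scan day as a block, and Ercc1 was 0.0045 with the first array of mouse 18 only and 0.0045 with the glandular score as a covariate. The response difference of Ercc6 was 0.41 by the Feature Extraction ratio. The number of pathway genes called in lung at D3 was 0 by median centring, the submitters' table, scan day or the mean over probes, and 2 by the Feature Extraction ratio. For the D3 response difference it was 0 by median centring and 2 by slide or the Feature Extraction ratio. The cause was not tested. Leaving out each mouse gave 0 to 2 pathway genes in lung at D3 and in the response difference, 0 to 1 in lung at D2 and for the trend, and 6 to 8 between tissues. It gave ranges in lung at D3 of -0.03 to 0.07 for Ddb1, -0.04 to 0.06 for Ercc2 and -0.03 to 0.08 for Ercc4, in forestomach of -0.21 to 0.04 for Ercc1, in the response difference of -0.11 to 0.08 for Ercc5 and -0.12 to 0.05 for Ercc6, and between tissues of -0.01 to 0.20 for Ercc4. Signal over background limits Ercc6, which was dim on most forestomach arrays.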
